A study of Mus musculus with 11 samples.

Results

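Ccr1, Ccr2, Cx3cr1, Cxcr4 and Ccrl2 encode chemokine receptors, the membrane proteins through which leukocytes read gradients of small secreted chemoattractants. The 5 genes were taken by name, matched from Entrez identifier to mouse symbol in the deposited table, and all 5 were found among its 16894 genes. They were compared across 11 mouse microglial RNA-seq libraries. Microglia, the macrophages of the brain parenchyma, were transplanted cells sorted by fluorescence 3 months after transplantation (TP, 4 libraries), primary cells in culture (PMG, 3 libraries) and resident cells sorted from brain (Res, 4 libraries). The series set PMG and Res beside TP to ask how far transplanted cells take on the programme of naive microglia.

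Every library carries the genotype Cx3cr1-GFP, so controls and transplanted cells share it. In the widely used mouse of that name the fluorescent reporter sits in the Cx3cr1 gene itself and takes the place of coding sequence. The labels do not say whether 1 or both alleles carry it, and reporter transcripts were not analysed here. The labels attach the same treatment to all 11 libraries, namely PLX3397, an inhibitor of the receptor Csf1r that microglia need to survive, at 600 mg/kg of chow in 3 depletion cycles followed by transplantation. They leave unsaid whether the donors of resident cells received it, what cells were transplanted, how old the animals were, and whether replicates were separate animals or cultures. If they were not, the p-values measure technical spread alone.

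Most chemokine receptors signal through inhibitory G proteins, are phosphorylated by receptor kinases and are then taken up by arrestins. Cx3cr1 binds fractalkine (Cx3cl1), which neurons display, and is a defining receptor of microglia in the healthy brain. Ccr2 binds Ccl2, Ccl7 and Ccl12 and takes monocytes out of the bone marrow, and Ccr1 binds Ccl3, Ccl5 and, in the mouse, Ccl6 and Ccl9. Cxcr4 binds Cxcl12 and retains cells in the marrow. Ccrl2 is an atypical receptor that binds chemerin (Rarres2) and is not known to signal through G proteins.

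Total expected counts ranged from 18692721 to 19761208 in TP, from 26705034 to 28219696 in PMG and from 19055655 to 19965631 in Res libraries. A count of 0 allows up to 3 counts, or 0.135 to 0.147 CPM, counts scaled to a common library total, and this limit covers counting error only. CPM were scaled by the trimmed mean of M values (TMM) and serve to compare libraries, whereas the authors' TPM serve to compare genes, because they are per length. The label microglia was checked with 10 homeostatic microglial genes. Their summed level was 45406 to 55730 CPM in TP, 3410 to 5894 CPM in PMG and 51641 to 58909 CPM in Res libraries, so the cultured cells held far less of these transcripts than either sorted group. In bulk RNA, fewer cells of a type and less RNA per cell cannot be told apart, and this holds for every level below. Neutrophil markers summed to at most 0.28 CPM in any TP or Res library and to 49.0 to 53.9 CPM in PMG libraries. Resident replicate 1 stood apart in 22 immediate early genes, whose summed level there was 16146 CPM, against 1274 to 1509 CPM in the other resident libraries.

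**Figure D1:**
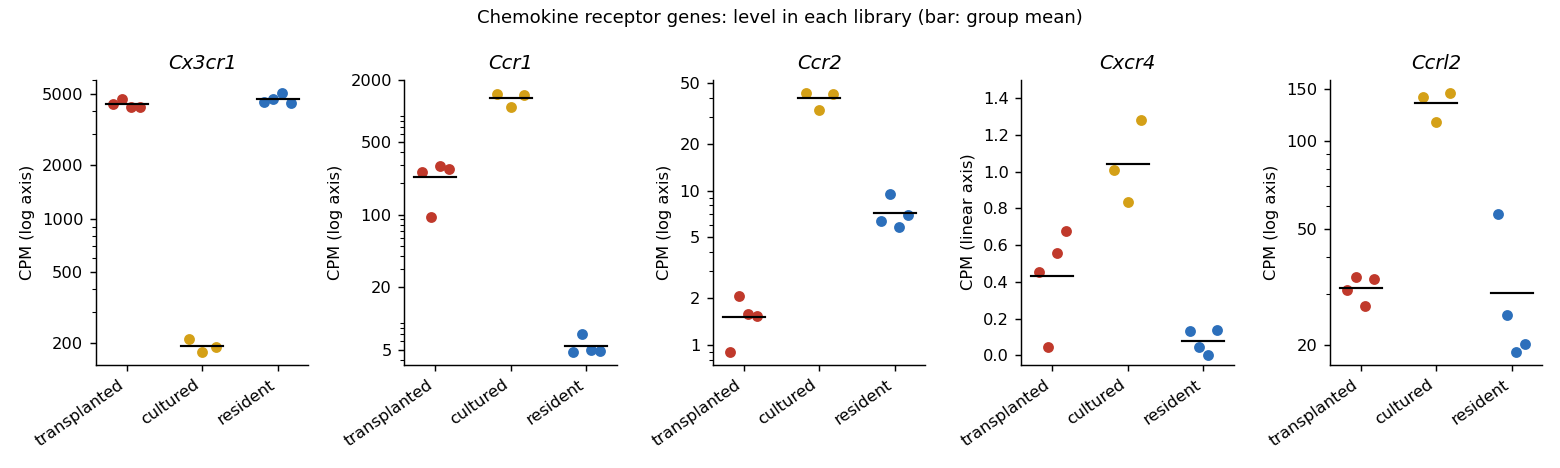
Level of each receptor gene in every library, in TMM-scaled CPM, for 4 transplanted, 3 cultured and 4 resident libraries; each point is 1 library, the bar is the group mean, and axes are logarithmic except for Cxcr4. Cx3cr1 is low in the cultured libraries (179 to 210 CPM), Ccr1 is high in cultured, intermediate in transplanted and low in resident libraries, and Ccr2 is lowest in transplanted libraries (0.906 to 2.06 CPM).

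Of the 5 genes, 4 could be tested between TP and Res, 1 of which was higher and 1 lower in TP (edgeR's quasi-likelihood test, with Benjamini-Hochberg adjustment across the whole table and a threshold of 0.05). Of all 11929 genes tested in that comparison, 7.17% were called higher and 5.86% lower. The groups did not overlap in 2 of the 5 receptors, against 19.7% of all genes tested. All 5 were tested between TP and PMG, with 1 higher and 3 lower, and between PMG and Res, with 4 higher and 1 lower. Calls were common in both comparisons with cultured cells. Between TP and PMG 36.9% of 12284 genes were called higher and 35.5% lower, and between PMG and Res 37.9% of 12406 genes higher and 37.2% lower, so 4 or 5 called receptors of 5 are close to those shares. In both comparisons the groups did not overlap in 5 of the 5 receptors, against 73.3% of all genes tested for TP and PMG and 75.8% for PMG and Res. On TPM the split of calls between higher and lower moved, to 7748 higher and 1843 lower between TP and PMG and to 1992 higher and 7826 lower between PMG and Res. The median log2 difference of all genes moved with it, to 0.98 in TP against PMG and to -0.95 in PMG against Res, whereas the medians of the count fits were 0.05 and -0.02.

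**Figure D2:**
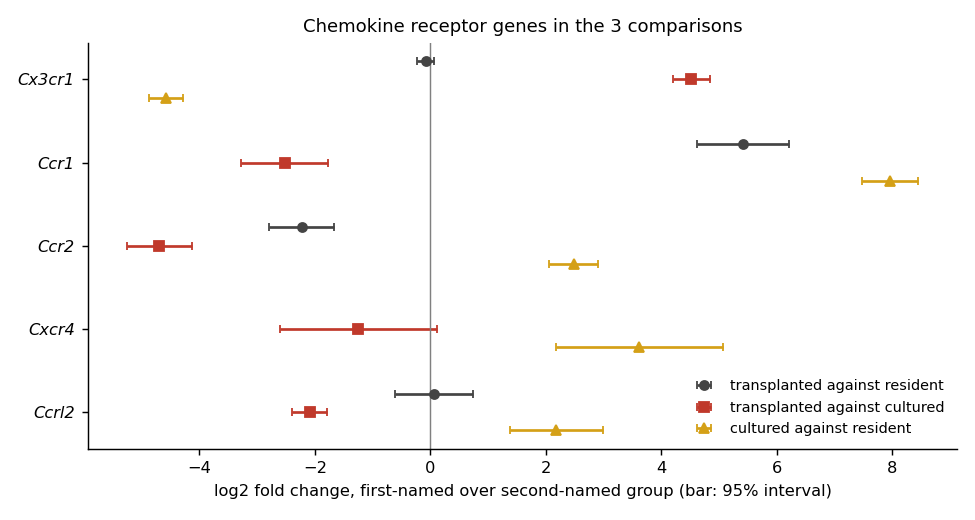
Log2 fold change of each receptor gene in the 3 comparisons from edgeR, with 95% intervals; a positive value means higher in the first-named group. Between transplanted and resident cells Cx3cr1 lies at -0.08, Ccrl2 at 0.06, Ccr1 at 5.42 and Ccr2 at -2.23. Cxcr4 was too low to be tested in that comparison. The Ccrl2 interval there is wide (-0.61 to 0.74), and its value was 0.54 without resident replicate 1.

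Cx3cr1 (Entrez 13051, chr9:120048683-120068296, minus strand, GRCm38.p6, protein coding) was nearly as abundant in transplanted as in resident cells and far lower in cultured cells. TP libraries 1 to 4 held 4404, 4728, 4217 and 4253 CPM, PMG libraries 1 to 3 held 210, 179 and 190 CPM, and Res libraries 1 to 4 held 4496, 4677, 5100 and 4460 CPM. TP and Res libraries overlapped, and every PMG library was below all of them. The log2 fold change of TP against Res was -0.08 ± 0.07 (SE), with a 95% interval of -0.24 to 0.07 and an adjusted p of 0.468 by edgeR. The interval bounds any difference at the ratios 0.849 and 1.05. Against PMG, TP was 22.9-fold higher (log2 4.52 ± 0.14, adjusted p = 7.28e-09, edgeR), and PMG was 24.0-fold lower than Res (log2 -4.58 ± 0.13, adjusted p = 9.99e-09, edgeR).

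Cx3cr1 was also the steadiest of the 5 genes among replicates, with a coefficient of variation of 5.29% in TP, 8.17% in PMG and 6.27% in Res libraries. Its expected counts were 88230 to 98787 in TP, 3639 to 4373 in PMG and 97823 to 107769 in Res libraries, so counting error is small. A RefSeq gene on the opposite strand, Gm33858, overlaps Cx3cr1 and was not found in the deposited table. The labels do not give the strand of the libraries, so reads of the overlap cannot be assigned to either strand. In the GENCODE annotation Cx3cr1 spans more, chr9:119901616-120069879, and overlaps 9 genes, among them the protein-coding Wdr48, Gorasp1, Ttc21a, Csrnp1 and Xirp1. Which annotation the authors counted with is not known here. Of 4453 distinct 50-base windows in Cx3cr1 transcripts, 47 (1.1%) also occurred in another gene.

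The 250 bases before the RefSeq start sites of Cx3cr1 and Ccr1 are shown because these genes moved in opposite directions in cultured cells and the second differed most between the sorted groups. Both lie on the minus strand of chromosome 9 in GRCm38.p6, at chr9:120068297-120068546 for Cx3cr1 and chr9:123968693-123968942 for Ccr1, and are written 5′ to 3′ on the strand of the gene. Capitals mark matches to 8 short motifs searched on both strands.
Cx3cr1: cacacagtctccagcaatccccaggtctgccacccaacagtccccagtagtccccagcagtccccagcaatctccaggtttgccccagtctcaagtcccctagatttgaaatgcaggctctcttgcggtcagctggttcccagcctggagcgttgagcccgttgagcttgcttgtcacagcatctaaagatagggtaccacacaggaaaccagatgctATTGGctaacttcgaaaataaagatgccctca
Ccr1: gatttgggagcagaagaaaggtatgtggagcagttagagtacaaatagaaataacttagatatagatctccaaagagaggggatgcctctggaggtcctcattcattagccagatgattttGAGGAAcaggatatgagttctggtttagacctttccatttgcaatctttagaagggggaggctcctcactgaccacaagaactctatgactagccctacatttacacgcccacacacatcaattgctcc
The motif letters were GAGGAA (PU.1 and ETS core), TGANTCA (AP-1), IRF, ACGTG (hypoxia response), CACGTG (E-box, which contains ACGTG), TTGCNNAA (C/EBP), CCAAT and TATAAA. Ccr1 held GAGGAA at bases -129 to -124, a match found in 23.3% of 32851 mouse promoters of the same length. Cx3cr1 held CCAAT on its reverse strand at bases -32 to -28, a match found in 33.8% of them. The other motifs occurred in 2.98% (IRF) to 16.6% (ACGTG) of promoters and in neither sequence. A match describes letters in the window and no binding was measured.

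Ccr1 (Entrez 12768, chr9:123962126-123968692, minus strand, protein coding) differed most between transplanted and resident cells. TP libraries 1 to 4 held 257, 94.0, 296 and 273 CPM, PMG libraries 1 to 3 held 1469, 1095 and 1415 CPM, and Res libraries 1 to 4 held 4.78, 7.04, 4.97 and 4.83 CPM. The 3 groups did not overlap, with TP libraries between the others and TP replicate 2 the lowest of its group. TP was 42.7-fold higher than Res, with a 95% interval of 24.6 to 74.2 (log2 5.42 ± 0.36, adjusted p = 1.17e-05, edgeR). TP was at the same time 5.74-fold lower than PMG (log2 -2.52 ± 0.33, adjusted p = 7.74e-05, edgeR), and PMG was 249-fold higher than Res (log2 7.96 ± 0.21, adjusted p = 7.72e-09, edgeR). With the cultured mean set to 0 and the resident mean to 1 on log2 CPM, TP stood at 0.33 for Ccr1, with its libraries between 0.27 and 0.48.

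The spread of Ccr1 inside TP was wide, with 1963 expected counts in replicate 2 and 5673 to 6375 in the other TP libraries. Markers of other cells were set beside it. The 9 border-associated macrophage markers summed to 387, 413, 623 and 563 CPM in TP libraries 1 to 4, with replicate 1 and not replicate 2 the lowest. The scavenger receptor gene Stab1 made up most of that sum, with 355 to 600.4 CPM in TP libraries. Of the 9 markers, 6 were lower in TP than in Res, as named with Ccr2. One of the other markers, chosen after its values were seen, did have its lowest TP value in replicate 2. Ms4a7, a gene of macrophages outside the parenchyma and of engrafted macrophages, had 14.8, 1.58, 7.34 and 24.2 CPM in TP libraries 1 to 4. It was not called between TP and Res (log2 1.76 ± 0.62, adjusted p = 0.0954, edgeR). The 11 monocyte markers summed to 26.5, 19.4, 23.3 and 27.9 CPM in TP libraries 1 to 4, with replicate 2 the lowest, as for Ccr1. Their sum was 972 to 1577 CPM in PMG and 16.6 to 34.7 CPM in Res libraries, and TP and Res overlapped. Different genes made up most of it in the sorted groups. These were Itga4 and Ms4a4c in TP (means 12.9 and 8.83 CPM) and F13a1 in Res libraries (mean 14.6 CPM). In TP, 7 of the 11 markers were under 1 CPM in every library. Of the 4 monocyte markers tested between TP and Res, Vcan, Itga4 and Ms4a4c were higher and F13a1 was lower in TP. Ly6c2, which marks classical monocytes, was at or below 0.14 CPM in every TP and Res library. The part of these markers in the level of Ccr1 was not tested. Without TP replicate 2, or without any other single library, the log2 fold change of TP against Res was 5.26 to 5.66.

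Ccr2 (Entrez 12772, chr9:124101918-124109140, plus strand, protein coding), the monocyte receptor, was lower in transplanted cells than in both other groups. TP libraries 1 to 4 held 0.906, 2.06, 1.58 and 1.54 CPM, PMG libraries 1 to 3 held 43.0, 33.4 and 42.0 CPM, and Res libraries 1 to 4 held 6.36, 9.55, 5.77 and 6.98 CPM. No 2 groups overlapped, and TP lay beyond the resident group rather than between the others, at 1.9 on the scale of 0 for cultured and 1 for resident cells (1.71 to 2.17 by library). TP was 4.68-fold lower than Res (log2 -2.23 ± 0.25, adjusted p = 0.000301, edgeR) and 25.8-fold lower than PMG (log2 -4.69 ± 0.25, adjusted p = 1.89e-07, edgeR). PMG was 5.58-fold higher than Res (log2 2.48 ± 0.19, adjusted p = 2.92e-06, edgeR). Expected counts were low, 19.5 to 43.2 in TP, 680 to 896 in PMG and 122 to 205 in Res libraries, so the TP level rests on few reads.

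Against Res, the lower Ccr2 in TP went with lower macrophage markers. Of 9 border-associated macrophage markers, which name the macrophages of meninges and perivascular spaces, 6 were lower and 0 higher in TP than in Res (Mrc1, Cd163, Lyve1, Pf4, Cbr2 and Cd209f), with a median log2 fold change of -1.91, against 0.02 over all genes tested. Cd163, a haemoglobin scavenger receptor, had 0, 0.0957, 0.0929 and 0 CPM in TP libraries 1 to 4 and 4.12 to 8.43 CPM in Res libraries. The hyaluronan receptor gene Lyve1 had 0 to 0.431 CPM in TP and 3.08 to 4.15 CPM in Res libraries. Cd209f was at 0 in every TP library and had 2.27 to 6.66 CPM in Res libraries. These 3 genes did not follow Ccr2 in cultured cells, where Ccr2 was higher than in Res. Of the 9 markers, Cd163, Lyve1 and Cd209f were lower in PMG than in Res, and 4 were higher (Mrc1, Pf4, Ms4a7 and Folr2). Summed over the list, the markers had 387 to 623 CPM in TP, 2580 to 3231 CPM in PMG and 565 to 650 CPM in Res libraries. In the sorted groups the scavenger receptor gene Stab1 made up most of that sum, with 355 to 600.4 CPM in TP and 498 to 590.3 CPM in Res libraries, and it was not called between them (log2 -0.24 ± 0.15, adjusted p = 0.336, edgeR). The transglutaminase gene F13a1, listed here with the monocyte markers, had 0.181 to 1.77 CPM in TP and 10.6 to 24.8 CPM in Res libraries, while the other 3 tested genes of that list were higher in TP. The B-cell receptor gene Cd79b had 0.241 to 0.479 CPM in TP and 17.5 to 26.2 CPM in Res libraries. Among the resident libraries, replicate 2 was the highest in Ccr2, Ccr1, Cd163 and F13a1. The part of these markers in the Ccr2 difference was not tested.

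**Figure D3:**
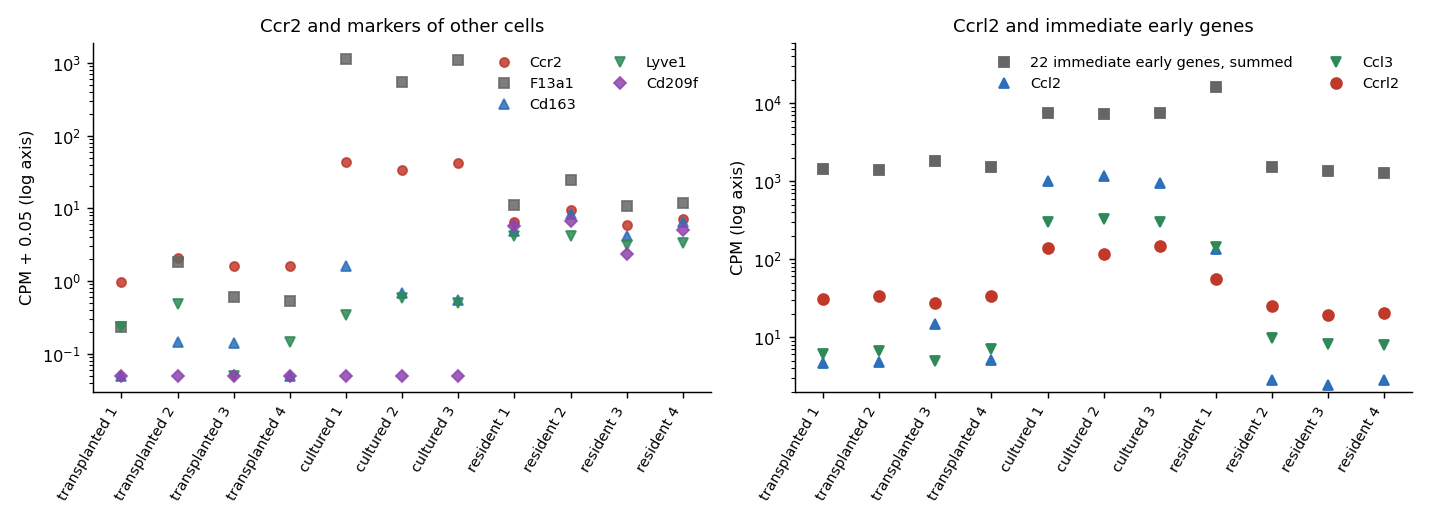
Levels per library in CPM on log axes, transplanted, cultured and resident libraries from left to right. On the left, Ccr2 with the macrophage markers Cd163, Lyve1 and Cd209f and with F13a1 of the monocyte list (0.05 added), all low in transplanted libraries; on the right, Ccrl2 with the chemokine genes Ccl2 and Ccl3 and the sum of 22 immediate early genes, all highest among resident libraries in replicate 1.

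Part of the Ccr2 sequence is not unique to it. Of 6758 distinct 50-base windows in Ccr2 transcripts, 129 (1.9%) occurred in another gene. Its expected count was a fraction (more than 0.005 from a whole number) in 11 of 11 libraries, and its values are uncertain to the extent that the authors' counting shared reads between genes. The coding sequences of the 5 receptors were identical to each other at 44.4% to 59.1% of aligned bases.

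Cxcr4 (Entrez 12767, chr1:128588199-128592299, minus strand, protein coding), the receptor for Cxcl12, was close to the limit of detection throughout. TP libraries 1 to 4 held 10, 1, 12 and 14 expected counts, PMG libraries 1 to 3 held 21, 17 and 26, and Res libraries 1 to 4 held 3, 1, 0 and 3. In CPM the means were 0.433 ± 0.272 in TP, 1.04 ± 0.222 in PMG and 0.0797 ± 0.0678 in Res libraries (SD, n = 4, 3 and 4). TP replicate 2 lay among the resident libraries and the other TP libraries above them. Between TP and Res the gene did not pass edgeR's filter on expression, and an exact permutation test of the CPM gave a two-sided p of 0.0857, where the smallest p that 4 against 4 libraries allow is 0.0286. The totals were 37 expected counts in TP and 7 in Res libraries. In 4 fits that kept the gene (edgeR without the filter or with all groups, DESeq2, and limma on TPM), the log2 fold change was 0.49 to 2.42 and the adjusted p 0.0789 to 0.128, so the gene was not called in any of them. TP and PMG libraries did not overlap, but the difference was not called (log2 -1.25 ± 0.61, adjusted p = 0.0861, edgeR). PMG was higher than Res (log2 3.62 ± 0.64, adjusted p = 0.000563, edgeR), with 64 against 7 expected counts summed over libraries.

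Ccrl2 (Entrez 54199, chr9:111054834-111057518, minus strand, protein coding) was higher in cultured cells than in both sorted groups. TP libraries 1 to 4 held 30.9, 34.1, 27.1 and 33.6 CPM, PMG libraries 1 to 3 held 141, 116 and 146 CPM, and Res libraries 1 to 4 held 56.0, 25.3, 19.0 and 20.2 CPM. TP libraries overlapped with Res only because of resident replicate 1, which was above every TP library while the other Res libraries were below every one. TP was 4.26-fold lower than PMG (log2 -2.09 ± 0.14, adjusted p = 6.21e-07, edgeR), and PMG was 4.51-fold higher than Res (log2 2.17 ± 0.36, adjusted p = 0.00041, edgeR). With all libraries, TP and Res did not differ past the threshold (log2 0.06 ± 0.30, 95% interval -0.61 to 0.74, adjusted p = 0.916, edgeR). Without resident replicate 1, Ccrl2 was called higher in TP (log2 0.54, adjusted p = 0.024, edgeR), where the adjusted p over the other alternatives was 0.638 to 0.993. Without resident replicate 2, 3 or 4 the log2 fold change was -0.02, -0.12 or -0.10.

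Resident replicate 1 was high in the immediate early genes named above and in chemokine genes that are switched on within hours of stimulation. Ccl2 had 137 CPM there, against 2.46 to 2.80 CPM in the other resident libraries, and Ccl3 had 143 CPM, against 7.98 to 9.88 CPM. The part of that library's state in its Ccrl2 level was not tested. Of 22 immediate early genes, 20 were tested between TP and Res and 0 were called in either direction by edgeR, although 11 had an unadjusted p under 0.05. DESeq2 and limma on log2(TPM + 1) called 0 as well, with 1 and 0 genes under an unadjusted p of 0.05. Without resident replicate 1, 1 was higher in TP (Nfkbiz) and 0 were lower. Between TP and PMG, 3 were higher and 19 lower, against 36.9% and 35.5% of all genes tested. Egr3, Nr4a1, Egr2 and Nr4a2, transcription factors of the early response, fell the most there, with log2 fold changes of -8.77 ± 0.30, -8.23 ± 0.23, -8.16 ± 0.19 and -7.43 ± 0.43 (adjusted p at most 2.76e-07, edgeR). Between PMG and Res, 8 were higher and 3 lower, and without resident replicate 1 19 were higher and 3 lower.

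Set side by side per length among 23 chemokine receptor genes, the 5 receptors changed rank between groups. In TP libraries Cx3cr1 led at 2827 ± 98.3 TPM, above Ccr1 at 192 ± 79.3 and Ccrl2 at 39.4 ± 3.38 TPM (SD, n = 4), with no overlap between them in any TP library. Ccr2, at 0.958 ± 0.297 TPM, and Cxcr4, at 0.600 ± 0.375 TPM, lay in TP among genes whose ranges overlapped. In PMG libraries Ccr1 led at 512 ± 99.7 TPM, above the Cxcl12 scavenger Ackr3 at 160.3 ± 3.44, Ccrl2 at 83.1 ± 13.8, Cx3cr1 at 56.7 ± 7.02 and Ccr2 at 11.7 ± 2.11 TPM (SD, n = 3). None of these 5 overlapped with the next in that order. Cxcr4 had 0.687 ± 0.194 TPM in PMG libraries. In Res libraries Cx3cr1 led at 2949 ± 216 TPM, above Ccrl2 at 37.0 ± 21.6 TPM (SD, n = 4). Ccr6, Ccr2 and Ccr1 had 4.71, 4.47 and 4.40 TPM with overlapping ranges, and Cxcr4 had 0.113 ± 0.0939 TPM. Over 1 TPM in every library were 7 of the 23 receptors in TP, 5 in PMG and 9 in Res.

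**Figure D4:**
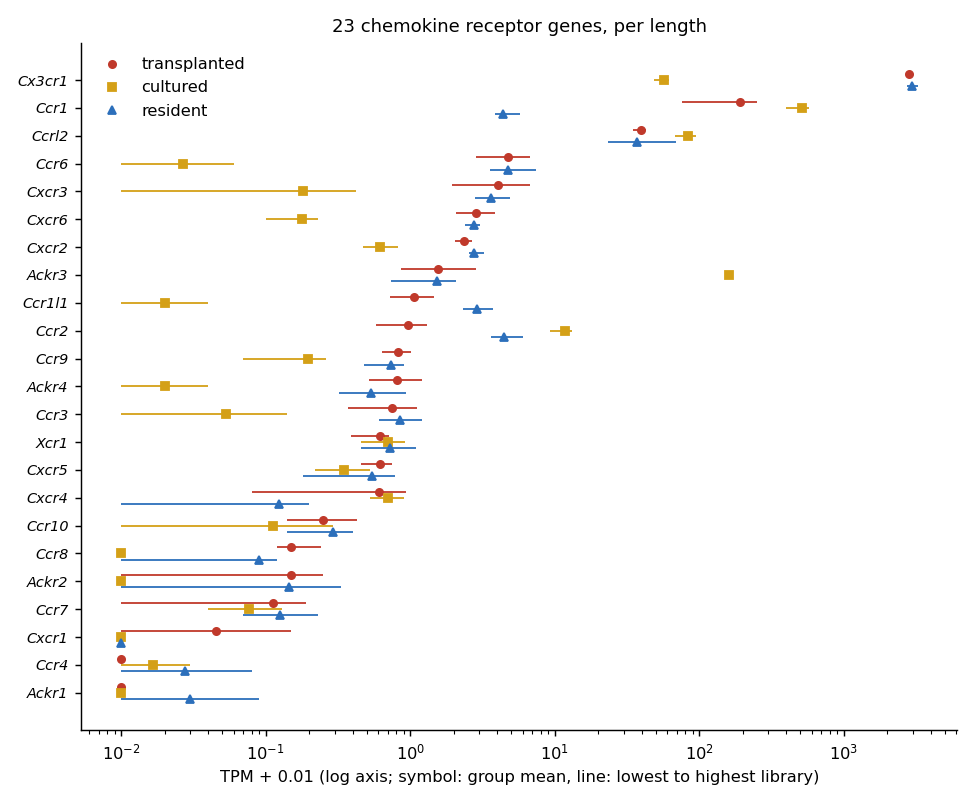
Level per length of 23 chemokine receptor genes in transplanted, cultured and resident libraries, in TPM + 0.01 on a log axis; symbols are group means and lines run from the lowest to the highest library. Cx3cr1 leads in both sorted groups (2827 and 2949 TPM), Ccr1 leads in cultured cells (512 TPM), and Ackr3 is high in cultured cells alone of the 3 groups.

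Among 18 other chemokine receptors, 11 were tested between TP and Res, with 0 higher, 1 lower and a median log2 fold change of 0.02, equal to that of all genes tested. The gene that fell was Ccr1l1, a close relative of Ccr1, with 0.940 ± 0.331 CPM in TP and 2.62 ± 0.537 CPM in Res libraries (log2 -1.47 ± 0.28, adjusted p = 0.0069, edgeR). Between TP and PMG, 7 of 11 were higher and 2 lower (median 2.94), against 36.9% and 35.5% of all genes tested. Ccr6, a receptor for Ccl20, and Ccr1l1 were higher in TP by log2 6.97 ± 0.85 and 5.42 ± 0.92, each with 1 expected count summed over the PMG libraries, and Ackr4, which scavenges homeostatic chemokines, by 5.18 ± 0.94, likewise with 1 count (adjusted p at most 0.000396, edgeR). Those 3 fitted values depend on the prior count and were 8.87, 7.31 and 7.08 without the PMG library that held the count (replicate 1 for Ccr6 and Ccr1l1, replicate 3 for Ackr4). Ackr3 was lower in TP, with 1.33 ± 0.757 CPM in TP and 293 ± 10.4 CPM in PMG libraries (log2 -7.77 ± 0.32, adjusted p = 3.72e-08, edgeR). Between PMG and Res, 2 of 10 were higher, Ackr3 and Xcr1, and 6 lower (median -2.0), among them Cxcr3, a receptor for Cxcl9 and Cxcl10, at log2 -3.32 ± 0.73 (adjusted p = 0.00245, edgeR), or -4.92 without PMG replicate 3.

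Ccr1, Ccr1l1 and Ccr2 sit in a run of receptor genes on chromosome 9 and did not move together. Along the chromosome the genes shown follow in the order Ccr9, Cxcr6, Xcr1, Ccr1, Ccr1l1, Ccr3 and Ccr2. Between TP and Res, Ccr1 was higher, and Ccr1l1 and Ccr2 were lower. Cxcr6 (log2 0.02 ± 0.22, adjusted p = 0.973) and Ccr3 (log2 -0.22 ± 0.35, adjusted p = 0.726, edgeR) were not called.

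**Figure D5:**
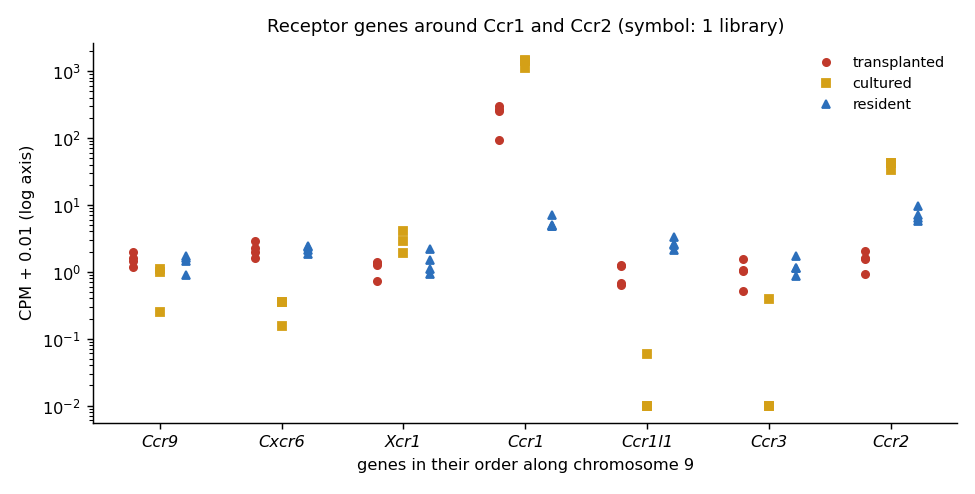
Level of 7 receptor genes in their order along chromosome 9, in CPM + 0.01 on a log axis; each symbol is 1 library, with transplanted left, cultured in the middle and resident right for each gene. Ccr1 is higher in transplanted (94.0 to 296 CPM) than in resident libraries (4.78 to 7.04 CPM), while Ccr1l1 and Ccr2 are lower.

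Ligands of Ccr1 and Ccr2 were lower in TP than in PMG (Ccl2, Ccl7, Ccl3, Ccl6 and Ccl9). Of the ligand genes of Cx3cr1, Cxcr4 and Ccrl2, only Cx3cl1 could be tested there, and it was not called. Of 10 ligand genes, 8 were tested between TP and Res, with 0 higher, 1 lower and a median log2 fold change of -0.50, and 8 between TP and PMG, with 0 higher, 5 lower and a median of -4.88. Over all genes tested these medians were 0.02 and 0.05. Between TP and PMG, 36.9% of all genes tested were higher and 35.5% lower. Without resident replicate 1 the ligand median of TP against Res was -0.19, again with 0 higher and 1 lower. The 3 tested ligand genes not called between TP and PMG were Cx3cl1 (log2 0.19 ± 0.60, adjusted p = 0.782), Ccl5 (log2 -0.50 ± 0.40, adjusted p = 0.284) and Ccl12 (log2 -0.86 ± 0.64, adjusted p = 0.25, edgeR). Ccl6, a ligand of Ccr1 in the mouse, had 91.7 ± 11.7 CPM in TP, 15551 ± 265 CPM in PMG and 141 ± 16.0 CPM in Res libraries (SD, n = 4, 3 and 4). It was lower in TP than in Res (log2 -0.62 ± 0.11, adjusted p = 0.00403) and than in PMG (log2 -7.40 ± 0.17, adjusted p = 1.81e-09, edgeR). The Ccr2 ligands Ccl7 and Ccl2 were lower in TP than in PMG by log2 -10.04 ± 0.21 and -7.16 ± 0.43, and Ccl3, a ligand of Ccr1, by -5.65 ± 0.16 (adjusted p at most 3.85e-07, edgeR). Between PMG and Res, 6 of 7 were higher and 0 lower (median 3.76, against -0.02 for all genes tested), with Ccl6 at log2 6.80 ± 0.13, Ccl9 at 3.76 ± 0.16, Ccl7 at 7.97 ± 1.01 and Ccl2 at 4.86 ± 1.43 (adjusted p at most 0.0121, edgeR). Resident replicate 1 sets the values of Ccl7 and Ccl2, which were 10.16 and 8.60 without it. The Cx3cr1 ligand gene Cx3cl1 had 0.464 to 0.718 CPM in TP, 0.0983 to 0.834 CPM in PMG and 0.0902 to 0.593 CPM in Res libraries. The Cxcr4 ligand gene Cxcl12 was not tested and had 1 expected count summed over TP, 1 over PMG and 31 over Res libraries, and the Ccrl2 ligand gene Rarres2 had at most 0.0491 CPM in any library.

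Of 9 receptors for other chemoattractants (complement fragments, formyl peptides, leukotriene B4, chemerin and sphingosine 1-phosphate), 6 were tested between TP and Res, with 1 higher, 0 lower and a median log2 fold change of 0.17. C5ar1, a receptor for complement C5a, had 415, 384, 814 and 406 CPM in TP libraries 1 to 4, 952, 708 and 941 CPM in PMG libraries and 225 to 248 CPM in Res libraries. It was higher in TP than in Res (log2 1.10 ± 0.21, adjusted p = 0.00718, edgeR), with every TP library above every Res library and TP replicate 3 the highest. Between TP and PMG, 2 of 8 were higher and 5 lower (median -1.01), and on TPM 3 were higher and 3 lower. The formyl peptide receptor genes Fpr1 and Fpr2 were lower in TP by log2 -6.87 ± 0.37 and -6.54 ± 0.51, the leukotriene receptor gene Ltb4r1 was lower by -3.09 ± 0.29, and C5ar2, the second C5a receptor, was higher by 2.24 ± 0.13 (adjusted p at most 6.7e-06, edgeR). Between PMG and Res, 5 of 8 were higher and 2 lower (median 1.63), against 37.9% and 37.2% of all genes tested. Fpr2 lay at log2 6.95 ± 0.46, Fpr1 at 5.66 ± 0.32, Ltb4r1 at 3.78 ± 0.32 and C5ar2 at -1.98 ± 0.10.

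Genes that carry or end the receptors' signal were also counted. Of 24 such genes, 22 were tested between TP and Res, with 0 higher, 1 lower and a median log2 fold change of -0.07, against 7.17% higher, 5.86% lower and a median of 0.02 over all genes tested. The gene that fell was Rgs10, which shortens G protein signals in microglia, with 315 ± 54.9 CPM in TP, 74.1 ± 14.6 CPM in PMG and 454 ± 28.1 CPM in Res libraries (TP against Res log2 -0.52 ± 0.12, adjusted p = 0.0157, edgeR). Between TP and PMG, 10 of 23 were higher and 9 lower (median 0.05), and on TPM 15 were higher and 4 lower of 22. Elmo1, an adaptor of Rac activation in migrating cells, and Grk3, a receptor kinase, were higher in TP by log2 3.64 ± 0.25 and 3.59 ± 0.43, and Grk5, another receptor kinase, and Rgs1 were lower by -3.23 ± 0.32 and -2.87 ± 0.14 (adjusted p at most 4.25e-05, edgeR). Between PMG and Res, 9 of 23 were higher and 10 lower (median -0.03), and on TPM 3 were higher and 15 lower of 22. Elmo1 and Grk3 were lower in PMG (log2 -3.76 ± 0.25 and -3.62 ± 0.32), and Grk5 and Rgs16, another regulator of G protein signals, were higher (3.43 ± 0.29 and 3.07 ± 0.52). Rgs16 was at log2 2.37 without PMG replicate 3.

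For each receptor the 3 genes most alike in pattern were taken by the root mean square difference of centred log2 CPM over the 11 libraries, among 12532 genes. Cx3cr1 lay closest to Golm1 (0.087 log2 units), Endod1 (0.138) and Arhgap27 (0.14). Golm1 averaged 1227 CPM in TP, 56.1 CPM in PMG and 1429 CPM in Res libraries. Ccrl2 lay closest to Bag2 (0.273), H3f3b (0.275) and Trp53inp2 (0.278). Ccr2 lay closest to Perp (0.574), Plekha6 (0.59) and Ncan (0.666), and Cxcr4 to Tarsl2 (0.655), Dna2 (0.683) and Cdr2 (0.69), most of them genes with few counts. Ccr1 had no such near match. Its closest genes were Itgal (0.856), Xdh (0.904) and Cyp4f18 (0.917), and Itgal, an integrin chain of leukocytes, averaged 8.24 CPM in TP, 87.2 CPM in PMG and 0.648 CPM in Res libraries. These distances rank genes by likeness over libraries that share groups and depth, and they carry no test.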

How the data were processed

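RNA-seq of mouse microglia was compared in 11 libraries (4 TP, 3 PMG, 4 Res), grouped by title. TRIzol extraction and Smart-Seq cDNA libraries from 1 ng of RNA are given in the labels' protocols. The deposited table gives, per the file headers, an expected count, TPM and FPKM per gene and library. The authors' expected counts are estimates not scaled to depth, and 81.5% to 84.9% of values per library are whole within 0.005. The authors' TPM are scaled for length and library, and the deposited FPKM served only to recover gene length. HISAT, Bowtie2 and GRCm38.p6 are named in the submitters' processing notes. For the read counter, annotation and strand, the sources used here give nothing. Symbols came from a RefSeq gene table of GRCm38.p6, which matched 16845 of 16894 identifiers, and promoter sequences from RefSeq in the same build. Shared sequence was read from GENCODE transcripts on GRCm38.

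Expected counts were rounded, and every comparison was fitted on its own groups in edgeR 4.0.16 (R 4.3.3) with TMM scaling, filterByExpr and the quasi-likelihood test, and adjusted over all genes tested. The procedure was run on simulated counts that had the same spread for every gene and changes only in well-counted genes. That run therefore does not cover genes as low as Cxcr4 or a library that stands apart, as resident replicate 1 does. The single permutation test used scipy 1.17.1. Positions and likeness used log2 CPM with a prior count of 1. Alternatives were DESeq2 1.42.0 and its size factors, no filter, all groups in one fit, a replicate block, removal of a length trend, limma 3.58.1 on log2(TPM + 1) or log2(TPM + 0.1), and each library left out. Fold changes on that scale understate low genes. The members and the lists were chosen with earlier results of these data known. From each list, up to 4 called genes with the largest change per comparison are named. Not every chemokine receptor gene is reported here. Marker genes are named beside a member as measured facts, chosen after their values were seen.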

Additional observations from a re-analysis of the deposited data

Results flagged for a closer look

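Among 60 combinations of a named gene with a sorted group of 4 libraries, 11 held 1 library far from the other 3 by Dixon's test on CPM, where chance gives about 1 in 20. One of these rests on counting alone, Fpr2 in Res libraries, where resident replicate 1 held 0 CPM and the other resident libraries 1 count each. Of the other 10, resident replicate 1 accounts for 7. It was high in Ccl7 (7.67 CPM), Ccl2 (137 CPM), Ccl3 (143 CPM), Rgs1 (122 CPM), Egr3 (10.6 CPM), Nr4a1 (22.1 CPM) and Egr2 (78.9 CPM). Transplanted replicate 3 was high in C5ar1 (814 CPM) and Ccl2 (14.5 CPM). Resident replicate 2 was high in Ccr1 (7.04 CPM), and it was also the highest resident library in Ccr2, Cd163 and F13a1. The causes were not tested.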

How the results depend on the processing

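Ccr1, Ccr2 and Cx3cr1 kept their direction and their side of the threshold in all 3 comparisons under every alternative run, with log2 fold changes of TP against Res between 5.04 and 5.66, between -2.42 and -1.48, and between -0.14 and -0.06. Their sizes ranged more widely against cultured cells. In the same order, TP against PMG lay between -2.84 and -1.53, between -5.05 and -2.7, and between 4.17 and 5.64. PMG against Res lay between 6.57 and 8.11, between 1.22 and 2.81, and between -5.7 and -4.27. Ccrl2 kept its direction and side of the threshold in both comparisons with cultured cells. It lay between -2.19 and -1.05 for TP against PMG and between 1.28 and 2.64 for PMG against Res. Cxcr4 kept them too, but only 14 of 16 alternatives tested it in each of these comparisons. Cxcr4 of TP against PMG lay between -1.74 and -0.10 and of PMG against Res between 0.60 and 4.01, the value nearest 0 on unfiltered TPM in each case. Ccrl2 of TP against Res lay between -0.12 and 0.54 with 1 library left out, and only the absence of resident replicate 1 made it a call, so members called higher there were 1 to 2. Of all genes, 507 were higher and 405 lower in TP than in Res with all groups in one fit, against 855 and 699, and 511 to 875 were higher and 509 to 878 lower with 1 library left out (511 and 519 higher without resident replicates 3 and 2). The causes were not tested. On log2(TPM + 1), log2(TPM + 0.1) and unfiltered TPM, TP against PMG gave 7748, 7722 and 8601 higher and 1843, 1824 and 2179 lower, against 4530 and 4361, and PMG against Res gave 1992, 1973 and 2361 higher and 7826, 7799 and 8711 lower, against 4704 and 4612. Same-numbered libraries shared only a number, with correlations of deviations between -0.069 and 0.054. A library correlated best with its own number in 1 of 4, 1 of 3 and 2 of 3 pairs. The replicate block gave 707 higher and 592 lower genes between TP and Res and changed no call of the 5 receptors. Depth limits Cxcr4 (1 to 14 expected counts in TP libraries) and Ccr2 (19.5 to 43.2).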

Other observations

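Ccl12, a ligand gene of Ccr2 that no threshold picked out between the sorted groups, had 35.8, 24.7, 237 and 64.1 CPM in TP libraries 1 to 4 and 49.1, 13.6, 11.6 and 20.8 CPM in Res libraries 1 to 4 (log2 1.92 ± 0.70, adjusted p = 0.105, edgeR), and it was chosen after its values were seen. TP replicate 3, the highest in Ccl12, was also the highest TP library in Ccl2 and C5ar1. Ccr1 and Ccr2 had 296 and 1.58 CPM in that library.

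The integrin chain Itga4, listed with the monocyte markers, lay in TP libraries between the cultured and resident groups. It had 10.4 to 15.2 CPM in TP, 64.0 to 93.9 CPM in PMG and 3.08 to 5.78 CPM in Res libraries. It was higher in TP than in Res (log2 1.41 ± 0.20, adjusted p = 0.00125, edgeR).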
